A study of Mus musculus with 8 samples.

Results

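The genes described here are 7 tetraspanins, Cd9, Cd63, Cd81, Cd82, Cd151, Cd53 and Cd37, out of 13378 genes with exon junctions in an RNA sequencing table of mouse FT1CL leukemia cells. They were chosen by symbol, with earlier results of these libraries in view, and their summed junction reads were set side by side in 4 Cop1 knockout (KO) and 4 Cop1 wild-type (WT) libraries. All 7 had junctions in the table and passed the filter on low values. The difference between KO and WT was used in choosing them, so for these 7 genes it is given as a description and without a test.

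Tetraspanins are small membrane proteins that cross the membrane several times and carry a large outer loop marked by a Cys-Cys-Gly motif. They gather integrins, receptors, proteases and each other into patches of the membrane, and several of them travel through endosomes into secreted vesicles. In blood cells they take part in adhesion, migration, signalling and granule release. Cd9 and Cd81 are close relatives found on many cell types, Cd63 sits mainly in late endosomes and granules, and Cd53 and Cd37 are largely limited to leukocytes.

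The KO libraries are of cells with the genotype Cop1 ko/ko, obtained by 4-hydroxy-tamoxifen, and the WT libraries are of Cop1 +/+ cells given no treatment. Both groups carry the line name FT1CL. Drug and genotype changed together in every library and cannot be told apart. Per the series' design text, the cells came from bone marrow of mice aged 8 weeks, genotype Cop1 cKO/Rosa26-Cre-ERT2, after an injection of 5-fluorouracil. They carried Trib1 on a pMYs retrovirus and grew with interleukin-3, so Trib1 and the cytokine were shared by both groups. Cop1 encodes a ubiquitin ligase that works with Trib1. No label states that libraries of the same group were grown as separate cultures; the spread between them, which every p-value here rests on, may then be technical.

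The 8 libraries held 17333302 to 22469109 junction reads. Cop1 itself had 66.7 to 81.3 junction reads per 1000000 junction reads (RPM) in KO libraries and 159 to 166 RPM in WT libraries, a log2 difference of -1.13 (SE 0.08). KO library 4 differed from the others of its group for Cd9, WT library 4 for Cd53, and both for Cd81. Values without the libraries that differed are given beside these genes. Some junction values were far below the rest of their gene: at most 6 reads, although the level of the remaining junctions of that gene predicted 40 or more. Such dropped values made up 6.52 to 7.45% of values per library among junctions that reached 40 reads somewhere. Among the 7 genes, 51 of 472 values were dropped (28 in KO, 23 in WT), at 15 of 59 junctions and in 5 genes, all but Cd63 and Cd53. Sums are therefore given over all junctions and again without the affected junctions.

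The stretch of coding sequence around the Cys-Cys-Gly codons of the large loop is shown first because it is what makes these genes one family. Each line reads 5′ to 3′ on the gene's own strand, with the codons of Cys-Cys-Gly in capitals. Sequences and positions are from Gencode M21 transcripts on GRCm38 (mm10).
Cd9: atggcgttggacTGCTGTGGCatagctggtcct
Cd81: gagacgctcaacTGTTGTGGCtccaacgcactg
Cd151: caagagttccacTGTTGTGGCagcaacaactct
Cd63: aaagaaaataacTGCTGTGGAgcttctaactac
Cd82: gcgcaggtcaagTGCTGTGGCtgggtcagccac
Cd53: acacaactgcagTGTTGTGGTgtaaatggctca
Cd37: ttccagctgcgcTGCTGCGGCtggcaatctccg

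The motif began at codon 150 of 226 in Cd9, 156 of 236 in Cd81, 155 of 253 in Cd151, 145 of 238 in Cd63, 149 of 266 in Cd82, 144 of 219 in Cd53 and 152 of 281 in Cd37. It lay in exon 6 of 8 in Cd9, Cd81, Cd63, Cd53 and Cd37, in exon 8 of 10 in Cd82 and in exon 6 of 7 in Cd151. Every one of these 33-base stretches was broken by an intron in the genome, so it lies across an exon junction of the kind counted here. For Cd9 the stretch spans chr6:125462177-125462332 on the minus strand, and for Cd53 it spans chr3:106763266-106767332 on the minus strand. Cd9, Cd63 and Cd81 each hold a second set of Cys-Cys-Gly codons, not identical in bases, elsewhere in the coding sequence.

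Of the 7 genes, 4 had KO and WT libraries that did not overlap, and all 4 were higher in KO: Cd9, Cd53, Cd82 and Cd63. Over the 11003 genes tested, 9.79% had groups that did not overlap with KO higher, and 25.1% in either direction. With dropped junctions omitted the count was again 4 of 7, against 11.2% of all genes with KO higher and 30.1% in either direction. The median log2 difference of the 7 genes was 0.75, against -0.07 over all genes tested. Since the genes were chosen on this contrast, these shares are printed side by side and nothing is read from them.

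Cd9 (ENSMUSG00000030342, chr6:125460266-125494791, minus strand) helps organise integrins and immunoglobulin-family proteins at the cell surface. It had 414.5, 361.8, 404.0 and 321.6 RPM in KO libraries 1 to 4, and 146.0, 129.8, 122.3 and 152.6 RPM in WT libraries 1 to 4. Every KO library was above every WT library, and KO library 4 was the lowest of its group. The means were 375 ± 42.6 RPM in KO and 138 ± 14.0 RPM in WT (SD, n = 4 each), 2.73-fold, with a difference of 1.44 (SE 0.11) on the log2(RPM + 1) scale. It was 1.51 without KO library 4 and 1.56 without both libraries numbered 4.

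Dropped values touched 2 of the 9 Cd9 junctions and lowered its sums unevenly. The junction of exon blocks E7.2 and E8.1 held 1, 4, 1 and 3 reads in KO libraries 1 to 4, and 424, 2, 291 and 378 reads in WT libraries 1 to 4. The next junction downstream, E8.2 to E9.1, held 1439, 1240, 1299 and 1169 reads in KO libraries, and 495, 387, 311 and 402 reads in WT libraries. At E4.1 to E5.1 only KO library 2, with 4 reads, and WT library 1, with 1 read, were dropped. The blocks carry no coordinates in the table, so these junctions were not placed on the genome.

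Without both junctions, Cd9 had 353, 361, 348 and 273 RPM in KO libraries and 126, 111, 93.3 and 111 RPM in WT libraries. The means were then 334 ± 40.9 RPM in KO and 110 ± 13.3 RPM in WT (SD, n = 4 each), 3.02-fold, and the log2 difference was 1.59 (SE 0.12). The 5 well-read junctions with no dropped value moved alike, with KO over WT ratios of 2.96 to 3.14. The other 2 junctions, into and out of block E3.1, had at most 7 reads in any library.

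**Figure D1:**
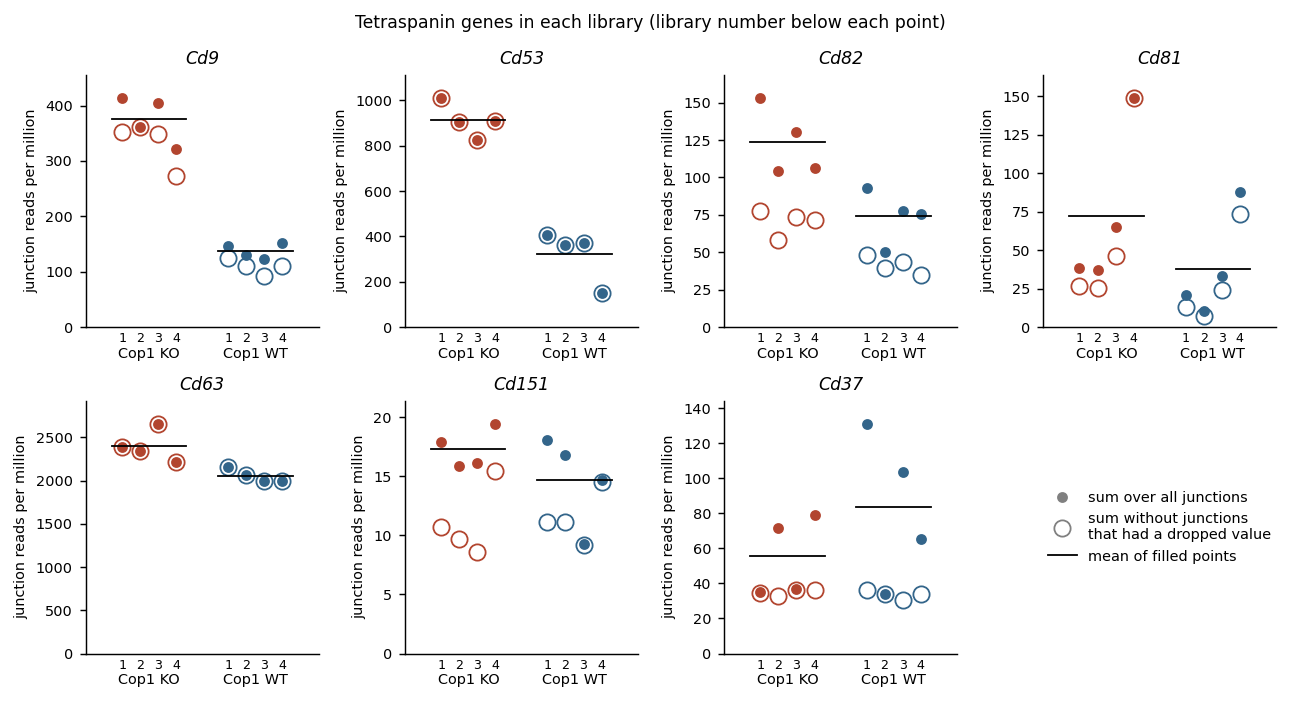
Summed RPM (vertical axis, from 0) of the 7 tetraspanin genes in each library, Cop1 KO left of Cop1 WT; filled points are sums over all junctions, open circles are sums without junctions with dropped values, and lines are means of the filled points. Cd9 sits at 321.6 to 414.5 RPM in KO, above 122.3 to 152.6 RPM in WT, while the filled points of Cd37 scatter and its open circles lie together.

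Cd81 is the closest relative of Cd9 among these genes and, like it, is found on many cell types. It had 38.3, 37.3, 65.2 and 149 RPM in KO libraries 1 to 4, and 20.7, 10.3, 33.1 and 87.9 RPM in WT libraries 1 to 4. The groups overlapped because the libraries numbered 4 were the highest of both groups. Within each number KO was above WT, with KO over WT ratios of 1.85, 3.62, 1.97 and 1.70 for numbers 1 to 4. The means were 72.5 ± 52.7 RPM in KO and 38.0 ± 34.5 RPM in WT (SD, n = 4 each), a log2 difference of 1.08 (SE 0.66). It was 1.62 without WT library 4, 0.66 without KO library 4 and 1.19 without both. Leaving out the 3 junctions with a dropped value gave 26.6, 25.6, 46.3 and 149 RPM in KO, and 12.9, 7.33, 24.3 and 73.6 RPM in WT, with a log2 difference of 1.14 (SE 0.77).

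Cd151, known as a partner of laminin-binding integrins, was read at a low level and showed no separation. It had 18.0, 15.9, 16.1 and 19.5 RPM in KO libraries 1 to 4, and 18.1, 16.8, 9.26 and 14.7 RPM in WT libraries 1 to 4. The groups overlapped, with a log2 difference of 0.26 (SE 0.20). Without 2 junctions with dropped values the means were 11.1 ± 3.03 RPM in KO and 11.5 ± 2.21 RPM in WT (SD, n = 4 each), and the difference was -0.05 (SE 0.19). The sign therefore turned with the junctions summed.

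Cd63, a protein of late endosomes and granules used as a surface marker of basophil and platelet activation, was the most read of the 7. It had 2391, 2346, 2658 and 2215 RPM in KO libraries 1 to 4, and 2155, 2071, 1995 and 2002 RPM in WT libraries 1 to 4. The groups did not overlap, though the lowest KO library lay close to the highest WT library. The means were 2403 ± 186 RPM in KO and 2056 ± 74.8 RPM in WT (SD, n = 4 each), 1.17-fold, with a log2 difference of 0.22 (SE 0.07). None of its 8 junctions had a dropped value, and their KO over WT ratios ran from 1.15 to 1.25. Its difference was 0.29 with TMM scaling.

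Cd82, named in humans as a suppressor of metastasis, was higher in KO by a smaller fold than Cd9. It had 153, 105, 130 and 106 RPM in KO libraries 1 to 4, and 93.1, 50.5, 77.6 and 75.3 RPM in WT libraries 1 to 4. Every KO library was above every WT library, by a narrow margin. The log2 difference was 0.75 (SE 0.20). Dropped values touched 5 of its 11 junctions, 7 values in KO and 7 in WT. Without those junctions the means were 70.3 ± 8.49 RPM in KO and 41.5 ± 5.68 RPM in WT (SD, n = 4 each), 1.69-fold, and the difference was again 0.75 (SE 0.12). The 3 well-read junctions left had KO over WT ratios of 1.685 to 1.695.

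Cd53 (ENSMUSG00000040747, chr3:106759921-106790149, minus strand), a leukocyte tetraspanin, had the largest log2 difference of the 7 in sums over all junctions. It had 1012, 906, 825 and 910 RPM in KO libraries 1 to 4, and 408, 363, 371 and 151 RPM in WT libraries 1 to 4. The groups did not overlap, and WT library 4 was well below the other WT libraries. The means were 913 ± 76.6 RPM in KO and 323 ± 116 RPM in WT (SD, n = 4 each), 2.83-fold, with a log2 difference of 1.59 (SE 0.29). Without WT library 4 it was 1.26, below Cd81 (1.62) and Cd9 (1.49). None of its 7 junctions had a dropped value, and their KO over WT ratios ran from 2.77 to 2.94.

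Cd37, the other leukocyte-limited member, had a difference whose sign turned when dropped junctions were left out. It had 35.02, 71.8, 36.7 and 79.1 RPM in KO libraries 1 to 4, and 131, 34.2, 104 and 65.4 RPM in WT libraries 1 to 4. The groups overlapped, with a log2 difference of -0.51 (SE 0.44). Dropped values touched 3 of its 8 junctions, 10 values in KO and 7 in WT. The junction E4.1 to E5.2 held 1237 reads in WT library 1 and at most 6 reads in each of the other 7 libraries. Without the 3 junctions, the means were 35.1 ± 1.62 RPM in KO and 33.7 ± 2.29 RPM in WT (SD, n = 4 each), and the difference was 0.06 (SE 0.08). That sum rests almost wholly on the junction E8.4 to E9.1, with 664, 540, 673 and 774 reads in KO libraries and 716, 610, 558 and 554 reads in WT libraries.

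**Figure D2:**
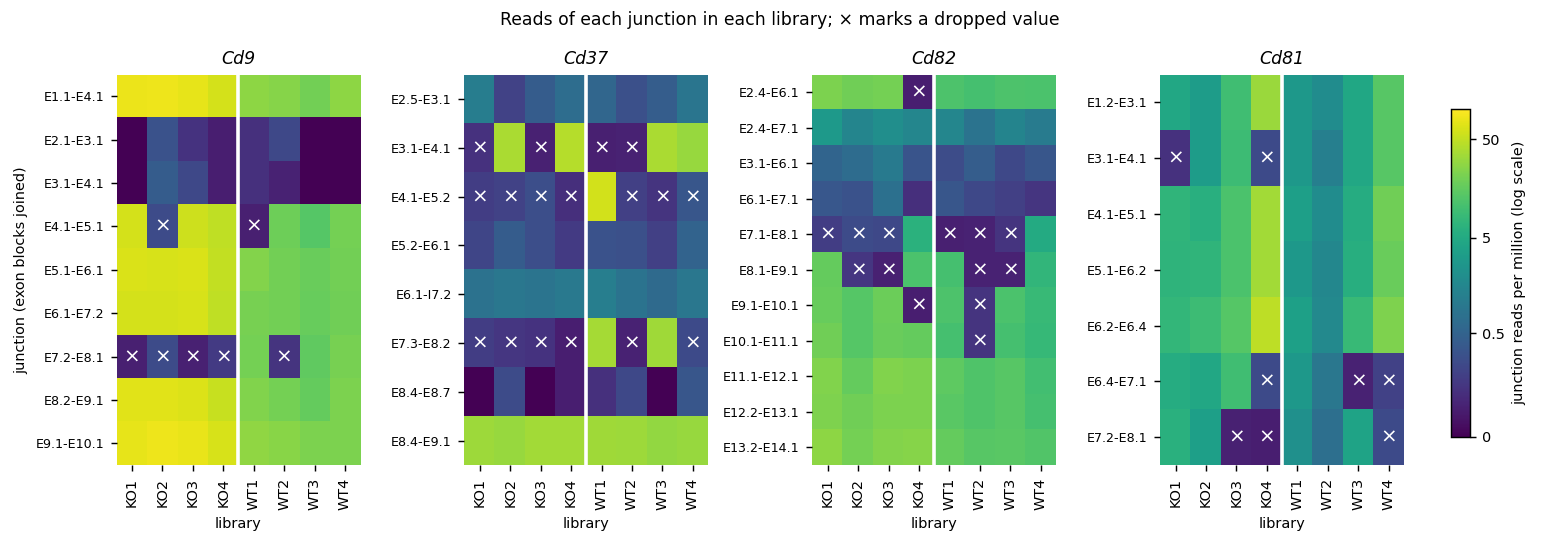
RPM on a log colour scale for each junction (rows, named by the exon blocks joined) of Cd9, Cd37, Cd82 and Cd81 in each library (columns, Cop1 KO left of the white line, Cop1 WT right); a cross marks a dropped value. In Cd9 the row E7.2-E8.1 is dropped in all 4 KO libraries and in WT library 2, while the rows around it are brighter in KO.

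Levels of different genes were compared as RPM per junction, averaged over junctions without a dropped value. In KO the order of mean levels was Cd63 (300.3 RPM per junction), Cd53 (130.5), Cd9 (47.7), Cd81 (15.4), Cd82 (11.7), Cd37 (7.01) and Cd151 (1.59). In WT the order of means was the same, at 256.9, 46.2, 15.8, 7.38, 6.92, 6.74 and 1.64 RPM per junction. In KO only the neighbours Cd81 and Cd82 overlapped between their libraries, while in WT Cd9 overlapped with Cd81, Cd81 with Cd82, and Cd82 with Cd37. The place of Cd81 came from the libraries numbered 4, since Cd81 was above Cd82 in 1 of 4 libraries in either group. Without them Cd81 had 8.20 RPM per junction in KO, below Cd82 (11.6), and 3.71 RPM per junction in WT, below Cd82 (7.30) and Cd37 (6.73). Cd37 moved most with the measure: taken by its most-read junction it had 33.2 RPM in KO, below Cd9 (74.9) and above Cd82 (24.3), and 31.8 RPM in WT, above Cd9 (24.7).

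**Figure D3:**
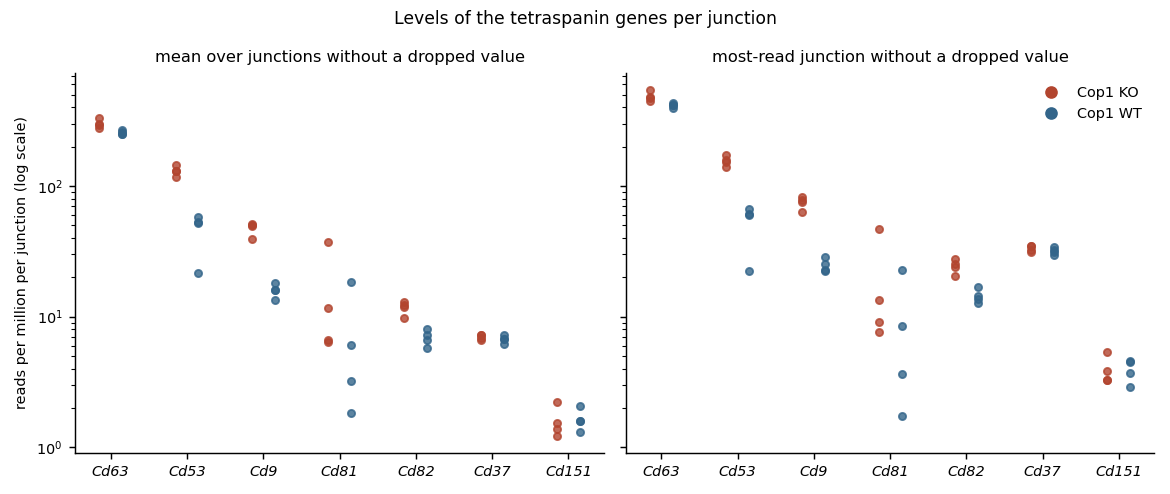
RPM per junction on a log axis for the 7 genes in each library, Cop1 KO points left of Cop1 WT points; the left panel averages junctions without a dropped value and the right panel shows the most-read such junction. Cd63 is highest in both panels and Cd37 stands higher in the right panel, where Cd151 has the lowest mean but Cd81 lies below it in 2 WT libraries.

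The promoters of Cd9 and Cd53, the pair with the largest log2 differences, are shown to let their sequences be compared. They are the bases of the RefSeq promoter window (GRCm38.p6) that lie before the gene itself, read on the minus strand, with motif matches in capitals.
Cd9, chr6:125494792-125495010: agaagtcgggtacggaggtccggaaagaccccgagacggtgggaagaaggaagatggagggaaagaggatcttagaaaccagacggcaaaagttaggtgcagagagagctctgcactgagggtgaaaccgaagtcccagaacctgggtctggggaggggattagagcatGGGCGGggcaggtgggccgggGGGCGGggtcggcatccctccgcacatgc
Cd53, chr3:106790150-106790399: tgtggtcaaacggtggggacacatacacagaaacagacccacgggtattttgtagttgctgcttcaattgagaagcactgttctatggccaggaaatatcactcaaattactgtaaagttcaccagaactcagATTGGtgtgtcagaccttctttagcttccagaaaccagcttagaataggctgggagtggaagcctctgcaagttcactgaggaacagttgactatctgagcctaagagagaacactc

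Both strands were searched for GGGCGG (GC box), CCAAT, TTGCNNAA (C/EBP), TGANTCA (AP-1) and GAGGAAGT (PU.1). Cd9 held 2 GC boxes and none of the other letters, and Cd53 held 1 CCAAT box, read here as ATTGG, and none of the others. The Cd9 sequence shown has 219 bases, and over 250 bases its matches were the same. Over 250 bases, Cd82 held TTGCNNAA in the windows chr2:93462901-93463200 and chr2:93461802-93462101, the latter also with GAGGAAGT. Cd37 held GAGGAAGT, while Cd63, Cd81 and Cd151 held neither. Among 32851 RefSeq promoters searched over 250 bases, 32.7% held GGGCGG, 33.8% CCAAT, 9.56% TTGCNNAA, 6.75% TGANTCA and 2.44% GAGGAAGT. A match is a description of letters only.

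Among other tetraspanins, Tspan31 rose and Tspan9 and Tspan3 fell in KO. The list held 25 genes, of which 15 had junctions in the table and 11 were tested. With limma, 3 of the 11 passed an adjusted p of 0.05 over all genes (1 higher, 2 lower), against 20.6% of all 11003 genes tested (8.49% higher, 12.1% lower). The median log2 difference of the 11 was -0.13, against -0.07 over all genes.

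Tspan31, whose human counterpart lies in a region amplified in sarcomas, had 191, 170, 171 and 193 RPM in KO libraries 1 to 4, and 131, 117, 133 and 117 RPM in WT libraries 1 to 4. The groups did not overlap, and the log2 fold change was 0.54 (SE 0.08, limma adjusted p = 0.0050). Tspan9, a tetraspanin of platelets, had 1.17 ± 0.75 RPM in KO and 6.29 ± 1.28 RPM in WT (SD, n = 4 each), a log2 fold change of -1.81 (SE 0.30, limma adjusted p = 0.0064). Tspan3 had 17.2 ± 2.36 RPM in KO and 31.1 ± 4.87 RPM in WT (SD, n = 4 each), a log2 fold change of -0.82 (SE 0.15, limma adjusted p = 0.0086). All 3 passed in each alternative in which they were tested.

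Tspan13 had 7.8, 20.1, 11.3 and 23.9 RPM in KO libraries 1 to 4, and 40.6, 50.4, 18.4 and 101 RPM in WT libraries 1 to 4. The groups overlapped and WT library 3 was low, with a log2 difference of -1.56 (limma adjusted p = 0.067, and 0.012 in the fit blocked by replicate number). Tspan14, one of the tetraspanins that guide the protease Adam10, had 71.7 ± 5.69 RPM in KO and 64.0 ± 3.09 RPM in WT (SD, n = 4 each) and did not pass (log2 difference 0.16, limma adjusted p = 0.24). With dropped junctions omitted, 5 of 11 passed (1 higher, 4 lower), against 29.0% of all genes (11.1% higher, 17.9% lower), the 2 added being Tspan13 (-1.86, limma adjusted p = 0.017) and Tspan4 (-0.66, limma adjusted p = 0.008). Tspan4 is named here after its values were seen.

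**Figure D4:**
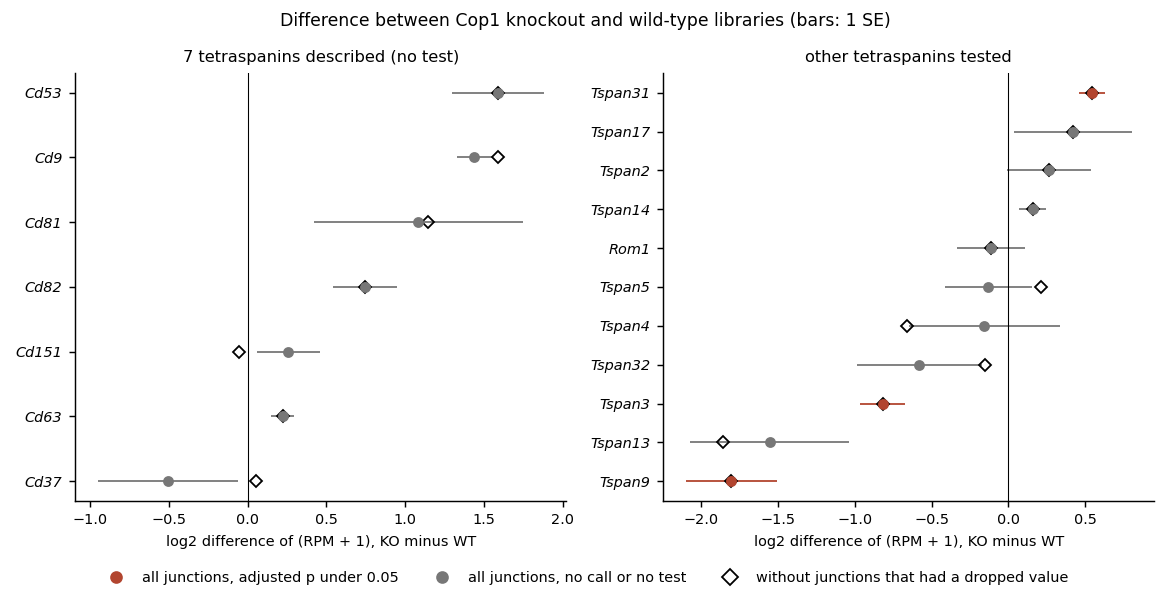
Log2 difference of RPM + 1, KO minus WT (horizontal axis), with bars of 1 SE, for the 7 tetraspanins described without a test (left) and the 11 other tetraspanins tested (right); diamonds leave out junctions with dropped values. Cd53 and Cd9 lie furthest right at 1.59 and 1.44, and Tspan9 furthest left at -1.81.

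Among genes whose proteins partner with tetraspanins, Itgb2 and Itgb1 rose and Itga4 and Hbegf fell in KO, the Itgb1 call being the least stable. Of 25 listed, 17 were tested, and 4 passed (2 higher, 2 lower), against 20.6% of all genes. Itga4, the alpha chain of an integrin that binds Vcam1, had 281, 233, 249 and 235 RPM in KO libraries 1 to 4, and 540, 490, 488 and 504 RPM in WT libraries 1 to 4. The groups lay far apart, with a log2 fold change of -1.02 (SE 0.08, limma adjusted p = 7.1e-04). Itgb1, the beta chain it pairs with, had 282 ± 40.2 RPM in KO and 212 ± 21.8 RPM in WT (SD, n = 4 each), a log2 fold change of 0.40 (SE 0.12, limma adjusted p = 0.044). The call for Itgb1 was lost when any 1 library other than KO library 4 was left out, with adjusted p of 0.056 to 0.104, and when no filter on low genes was used (0.053).

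Itgb2, the beta chain of leukocyte integrins, had 515, 475, 652 and 478 RPM in KO libraries 1 to 4, and 270, 321, 342 and 411 RPM in WT libraries 1 to 4. KO was higher in every library, with a log2 fold change of 0.66 (SE 0.15, limma adjusted p = 0.018, and 0.053 without WT library 2). Dropped values touched 9 of the 18 Itgb2 junctions. Without those junctions its log2 fold change was 0.94 (limma adjusted p = 0.0039). Hbegf, a growth factor whose membrane form binds Cd9, had 6.73 ± 1.45 RPM in KO and 11.7 ± 1.16 RPM in WT (SD, n = 4 each), a log2 fold change of -0.74 (SE 0.17, limma adjusted p = 0.021). It missed the threshold without KO library 3 (0.059) or WT library 2 (0.062). Adam10, a sheddase held by tetraspanins, had 208 ± 41.4 RPM in KO and 206 ± 17.3 RPM in WT (SD, n = 4 each, log2 difference -0.01, limma adjusted p = 0.98). Itga6, the laminin receptor chain known to bind Cd151, had 285 ± 61.1 RPM in KO and 300.3 ± 44.7 RPM in WT (SD, n = 4 each, log2 difference -0.09, limma adjusted p = 0.75).

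In the fit blocked by replicate number 8 partners passed (4 higher, 4 lower), against 28.0% of all genes (12.3% higher, 15.7% lower), the 4 added being Cd44, Clec7a, Kit and Prkca. The count was 7 without both libraries numbered 4, against 25.1% of all genes, 2 without KO library 3 and 1 without WT library 2. Leaving out any 1 library left 11.1 to 27.3% of all genes called.

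For enzymes that modify tetraspanins or turn them over, no change was called. Of 8 listed genes 7 were tested, and 0 passed with limma, against 20.6% of all genes. Of these 7, 0 had an unadjusted limma p under 0.05. Likewise 0 passed with edgeR, against 18.4% of all genes, and 0 with DESeq2, against 27.5%. Rnf128, a ubiquitin ligase that targets tetraspanins, had 106 ± 16.7 RPM in KO and 98.6 ± 33.5 RPM in WT (SD, n = 4 each, log2 difference 0.15, limma adjusted p = 0.71). Zdhhc7, a palmitoyltransferase, had 25.7 ± 3.45 RPM in KO and 24.6 ± 0.874 RPM in WT (SD, n = 4 each, log2 difference 0.05, limma adjusted p = 0.82). Lypla2 and Lypla1 were read mostly at junctions with dropped values. Lypla2 had means of 22.3 RPM in KO and 44.7 RPM in WT (log2 difference -1.34, SE 0.73). Without dropped junctions they were 2.04 and 1.62 RPM (log2 difference 0.21). Lypla1 fell from 58.5 and 69.3 RPM to 4.48 and 4.83 RPM. For these genes the lack of a call does not show equal levels. In the fit blocked by replicate number 1 gene passed, against 28.0% of all genes. That gene was Zdhhc2, an enzyme known to palmitoylate Cd9 (log2 difference 0.66, limma adjusted p = 0.030).

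Vesicle sorting and release is the route by which Cd63 reaches endosomes and secreted vesicles. Of 20 such genes tested, 4 passed, all higher. That is near the share of all genes called, 20.6% (8.49% higher, 12.1% lower). Their median log2 difference was 0.13, against -0.07 over all genes. Ap3s1, a subunit of the AP-3 adaptor, had 641, 525, 532 and 499 RPM in KO libraries 1 to 4, and 371, 321, 363 and 245 RPM in WT libraries 1 to 4. The groups did not overlap, with a log2 fold change of 0.77 (SE 0.14, limma adjusted p = 0.0099). Flot2, a scaffold of membrane microdomains, had 104 ± 25.8 RPM in KO and 51.7 ± 5.99 RPM in WT (SD, n = 4 each), a log2 fold change of 0.96 (SE 0.20, limma adjusted p = 0.013). Ap3m1, the AP-3 subunit that binds the sorting signal of Cd63, had 64.8 ± 7.92 RPM in KO and 46.9 ± 6.13 RPM in WT (SD, n = 4 each), a log2 fold change of 0.46 (SE 0.13, limma adjusted p = 0.038).

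Hgs, which gathers ubiquitinated cargo on endosomes, had 106 ± 3.68 RPM in KO and 87.9 ± 6.19 RPM in WT (SD, n = 4 each), a log2 fold change of 0.27 (SE 0.08, limma adjusted p = 0.042). Ap3m1 lost its call without any 1 library other than KO library 2 and WT library 3 (adjusted p 0.057 to 0.099), and Hgs without any 1 library (0.054 to 0.112), and the count was 2 without KO library 1 or 4, WT library 1, 2 or 4, or both libraries numbered 4. By the most-read junction alone neither passed (adjusted p 0.17 for Ap3m1 and 0.85 for Hgs). Chmp4b, which helps cut vesicles off, had 246 ± 6.90 RPM in KO and 245 ± 11.1 RPM in WT (SD, n = 4 each, log2 difference 0.0035, limma adjusted p = 0.98). Rab27a, which docks vesicles for release, had 169 ± 18.6 RPM in KO and 153 ± 19.3 RPM in WT (SD, n = 4 each, log2 difference 0.14, limma adjusted p = 0.44). With dropped junctions omitted 6 of 20 passed, all higher, against 29.0% of all genes (11.1% higher, 17.9% lower). In the blocked fit 6 of 20 also passed, all higher, against 28.0% of all genes (12.3% higher, 15.7% lower). The 2 added in the blocked fit were Flot1 (limma adjusted p = 0.0061) and Sdcbp (limma adjusted p = 0.038).

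**Figure D5:**
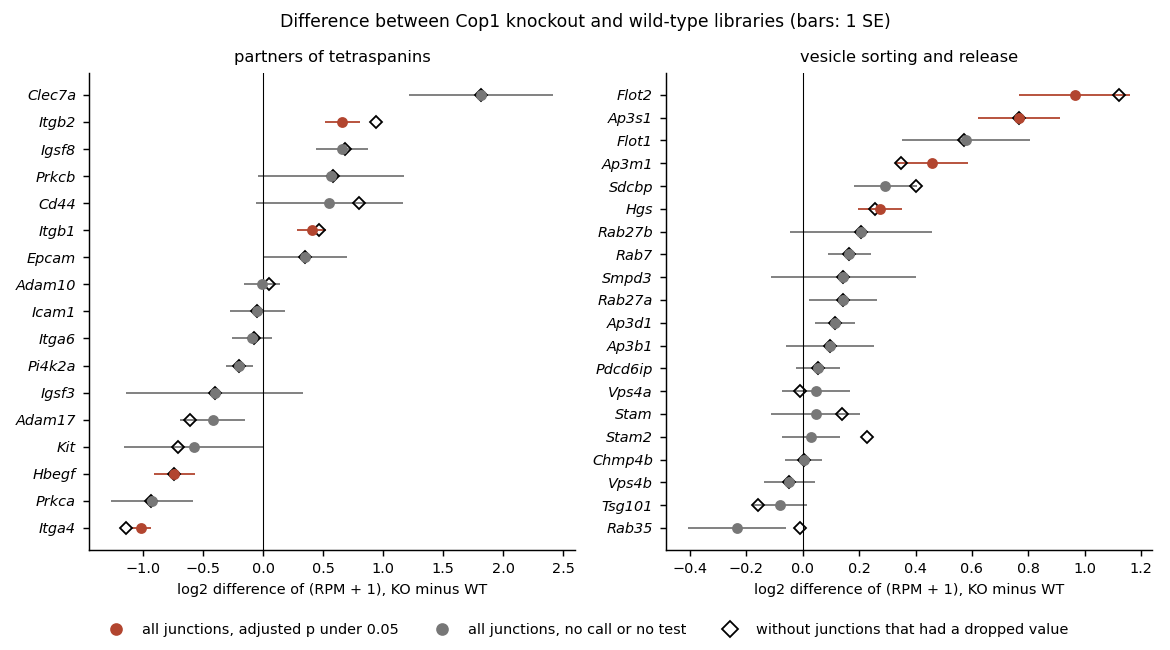
Log2 difference of RPM + 1, KO minus WT (horizontal axis), with bars of 1 SE, for 17 tetraspanin partners (left) and 20 genes of vesicle sorting and release (right); red points passed an adjusted p of 0.05 and diamonds leave out junctions with dropped values. Itga4 is lowest at -1.02 among partners, and Flot2 and Ap3s1 are highest among vesicle genes at 0.96 and 0.77.

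The genes whose pattern over the 8 libraries was most like that of Cd9 were found by the root mean square difference of mean-centred log2(RPM + 1). Among the 5 nearest were Tmem63a (0.128), Spata6 (0.160), Mgst3 (0.169) and Wipi1 (0.195). Tmem63a, an ion channel gene, had 164 ± 24.4 RPM in KO and 58.7 ± 0.911 RPM in WT (SD, n = 4 each). When dropped junctions were not summed, the 5 nearest were Tmem63a (0.128), Wipi1 (0.142), Capg (0.166), Cast (0.191) and Aifm2 (0.192). These values describe likeness over 8 shared libraries and carry no test.

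Markers of several cell types were read beside the tetraspanins, as summed RPM without junctions with dropped values. In bulk RNA, fewer cells of a type and less RNA per cell cannot be told apart. All 9 myeloid markers were read, at 1933 to 4447 RPM in KO libraries and 499 to 2809 RPM in WT libraries. These ranges overlapped, but within each replicate number the myeloid sum was higher in KO, by 1.58 to 4.12 times. Cd9, Cd53, Cd82, Cd81 and Cd63 were also higher in KO within each number, and Cd151 and Cd37 were not. The 9 myeloid markers are given only as a sum here. The 6 mast cell and basophil markers summed to 11667 to 16913 RPM in KO and 11820 to 13769 RPM in WT. Among B cell markers, Cd79a stayed under 1 RPM in every library and the list summed to 0.878 to 2.83 RPM in KO and 0.952 to 3.38 RPM in WT, beside the read levels of Cd81 and Cd37. T cell markers summed to 0.223 to 5.56 RPM in KO and 0.618 to 6.15 RPM in WT.

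Megakaryocyte and platelet markers summed to 338 to 680 RPM in KO and 372 to 733 RPM in WT, and eosinophil markers to 28.7 to 125 RPM in KO and 69.5 to 166 RPM in WT. Erythroid markers (3 of 4 read) were at 1.95 to 5.03 RPM in KO and 14.9 to 29.5 RPM in WT, and stroma markers at 20.8 to 64.0 RPM in KO and 150.1 to 198 RPM in WT. These 2 lists were lower in every KO library, and the stroma sum came from Pdgfrb, since Col1a1 and Col1a2 were under 1 RPM in every library. The eosinophil sum was also lower in KO within each number. The part of the myeloid, erythroid, stroma and eosinophil lists in the tetraspanin values was not tested.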

How the data were processed

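Total RNA of 4 Cop1 KO and 4 Cop1 WT libraries was sequenced with strand-specific libraries, per the labels' protocols. Trimmomatic 0.39 and kallisto were used with mm10, per the submitters' processing notes; an aligner, annotation release or junction filter was not given in the sources used here. The deposited values are a normalised signal for 134051 junctions of 13378 genes, named as AltAnalyze junctions per the file headers. Tested on the values, each signal was the junction's reads plus 1, scaled by the library's junction total and 60 nt, with 0 reads listed as a floor of 0.854. Whole reads were recovered for 100% of values above the floor, within 0.001 read.

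Reads were summed per gene and scaled to RPM; a fragment across several junctions counts at each. Symbols matched 13247 genes; Marchf8 was matched through its older symbol. Main test: limma 3.58.1 (R 4.3.3) on log2(RPM + 1), trend and robust, mean of at least 1 RPM, Benjamini-Hochberg over 11003 genes, threshold 0.05; low genes' changes are understated. It called 2264 genes (934 higher, 1330 lower; with TMM scaling 1087 and 1017). On the recovered reads edgeR 4.0.16 called 2021. DESeq2 1.42.0 was a further alternative and called more false genes than its nominal rate when tested on simulated data. Other alternatives changed pseudocount, filter, scaling, junctions summed, block and libraries. Annotated processed pseudogenes Cd9-ps and Cd63-ps may share reads with Cd9 and Cd63.

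Members and lists were chosen with earlier results of these data known. From each other list, up to 6 genes past the threshold with the smallest adjusted p and the 2 best-read others were named, with the 5 genes most like Cd9, of which 1 is not reported here; Cd44, Clec7a, Kit, Prkca, Zdhhc2, Flot1, Sdcbp and Tspan4 were added after their values were seen. Same-numbered libraries deviated together (correlations 0.293 to 0.550, highest between different numbers 0.146), so the numbers pair the libraries. The main fit did not use this pairing, so its SE and p-values hold the spread shared by same-numbered libraries. The fit blocked by replicate number did use it and called 3084 genes, against 2264 in the main fit. No pair of libraries in a group held identical values (chi-square of gene sums at least 30.8 times its degrees of freedom). The sums include dropped values, which can raise this figure. It therefore cannot show whether 2 libraries came from separate RNA or cultures.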

Additional observations from a re-analysis of the deposited data

Results flagged for a closer look

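Of 24 groups of 4 libraries looked at, 2 had a library far from the other 3, where chance flags about 1 in 20 groups. Cd9, summed without junctions that had a dropped value, was at 273 RPM in KO library 4 and at 348 to 361 RPM in the other KO libraries; the WT libraries were at 93.3 to 126 RPM. Cd81, summed the same way, was at 149 RPM in KO library 4 and at 25.6 to 46.3 RPM in the other KO libraries, and at 73.6 RPM in WT library 4 against 7.33 to 24.3 RPM in the other WT libraries.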

How the results depend on the processing

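Over all alternatives the differences of Cd9, Cd53, Cd82, Cd81 and Cd63 kept their sign, with Cd9 at 1.38 to 1.69. Cd9 was 1.67 with TMM scaling and 1.69 without both libraries numbered 4, each also without dropped junctions. Cd151 turned negative without dropped junctions (-0.054, also with the replicate block), by its most-read junction (-0.0063), and without dropped junctions and libraries numbered 4 (-0.10). Cd37 turned positive without dropped junctions (0.056, also with the block; 0.14 with TMM; 0.041 without libraries numbered 4) and by its most-read junction (0.061). Leaving out 1 library gave 1.38 to 1.51 for Cd9, 1.26 to 1.73 for Cd53, 0.62 to 1.62 for Cd81, 0.57 to 0.86 for Cd82, 0.17 to 0.26 for Cd63, 0.07 to 0.37 for Cd151 and -0.87 to -0.24 for Cd37.

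Genes called were 2264 (41.3% higher) and with TMM 2104 (1087 higher, 1017 lower; 51.7% higher), which moved the median of all genes by 0.06; 4405 without dropped junctions with the block, 2734 without libraries numbered 4, 3913 without these and dropped junctions, and 1215 to 2991 with 1 library left out. As shares of all genes, 28.0% were called with the block, 27.5% with DESeq2 and 25.1% without libraries numbered 4. Without dropped junctions the share was 29.0%, and 40.2% with the block as well. Also without dropped junctions, 2954 of 10956 genes were called with TMM and 3913 of 10846 without libraries numbered 4. With 1 library left out the share was 11.1 to 27.3%. The list counts that follow rose and fell beside these shares. Of 11 other tetraspanins tested, 5 were called with DESeq2 and without dropped junctions (also with the block or TMM). The count was 6 without libraries numbered 4 as well, and 3 to 4 with 1 library left out. Of 17 partners tested, 8 were called with the replicate block and 7 without libraries numbered 4. The count was 10 without dropped junctions with either of these, and 1 to 6 with 1 library left out. Modification genes were 1 with the block, with or without dropped junctions, and 0 to 0 with 1 library left out. Of 20 vesicle genes, 6 were called with the block, and 8 with DESeq2 and with TMM without dropped junctions. The count was 2 without libraries numbered 4 and 2 to 3 with 1 library left out. Among the 19 named list genes, the block changed 1 call, that of Tspan13, and no other. Their 434 alternative values gave 393 on the same side of the threshold, 30 no longer past it, 11 newly past it and 0 reversed; Tspan9 gave no value in 2 alternatives and Hbegf in 1, below the filter.

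Levels per junction over 8 libraries by median over all junctions and by most-read junction were 39.0 and 49.8 RPM for Cd9 (31.7 as reported), 244 and 451 for Cd63, 10.6 and 19.3 for Cd82, 1.11 and 3.93 for Cd151, and 0.44 and 32.5 for Cd37 (8.70 over all junctions); Cd53 was 104 by its most-read junction. The cause of these changes was not tested. Counting error weighs most on Cd151, at 1.59 RPM per junction in KO and 1.64 in WT.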
